A study of Mus musculus with 11 samples.

Results

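The genes described here encode the machinery that copies DNA: origin recognition, licensing, the replicative helicase and its activation, primase and the polymerases, the sliding clamp and its loader, the single-strand binding proteins, the enzymes that mature the lagging strand, and the enzymes that supply nucleotides. The list held 41 genes. A member was measured if at least 1 probe carrying its symbol in the platform annotation had a detection p-value under 0.01 on 2 or more arrays, and the brightest such probe stood for the gene. Of the 41 genes, 38 had a probe and 36 passed this filter, out of 9620 genes and unnamed probes tested in all. Orc1 and Pola1 had a probe that was detected on 0 arrays. Gins1, Gins2 and Rfc3 had no probe under their symbol in the annotation used here.

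The study used Illumina MouseRef-8 v2 bead arrays to measure total RNA in 6 groups of male mouse pluripotent stem cells, 11 arrays in all. ESC are embryonic stem cells, and EpiSC are GOF18 epiblast stem cells, and both groups have 2 arrays. Epi-Sox2 are GOF18 cells made to overexpress Sox2 and cultured in the medium the labels call CM, with 2 arrays. The E3 line, also in CM, was sorted by flow cytometry for presence (EpiSC-GFP+) or absence (EpiSC-GFP-) of a green Oct4 reporter, which gave 2 arrays a fraction. T9-EpiSC is 1 array of the T9 line, kept on CF1 embryonic fibroblasts at medium density in a medium called UM, without Fgf2 for 2 days, and harvested free of the fibroblasts. Each kind of epiblast stem cell is thus 1 line, and replicate arrays are labelled as biological replicates of that line, so a p-value speaks of array-to-array spread within a line, and cell type and line cannot be told apart. The medium of the ESC and EpiSC groups is not given in the labels.

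Origins are licensed for replication in G1, when the origin recognition complex, Cdc6 and Cdt1 load the Mcm2-7 helicase onto DNA. Geminin, the product of Gmnn, binds Cdt1 to prevent a further round of loading. In S phase Cdc45 and the GINS complex turn the loaded helicase into an active one. Primase and polymerase alpha then start each strand, and the clamp loader places PCNA, the sliding clamp that tethers the polymerases and recruits Fen1, Lig1 and other proteins to the fork. Many of these genes are transcribed under E2F factors as cells enter S phase, and pluripotent cells of the mouse cycle fast with a large share of cells in S phase.

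A promoter window of 250 bases before to 50 bases after an annotated start was held for 34 of the 41 genes in the RefSeq table used here (build GRCm38.p6), and Gmnn, Mcm4, Gins1, Gins2, Gins4, Pole and Rfc2 were not among them. Each window was searched on both strands for 4 E2F-type words, TTTGGCGC, TTTCGCGC, TTTCCCGC and TTTGCCGC. At least 1 of them was present for 13 of the 34 genes (38.2%), against 2.6% of the 27025 genes with a window. The 13 genes were Cdc6, Cdt1, Gins3, Lig1, Mcm3, Mcm5, Mcm6, Mcm7, Orc1, Orc3, Pola1, Pold1 and Rfc3. CCAAT, on either strand, was present for 64.7% of the members and 41.1% of all genes with a window, and GGCGGG, on either strand, for 76.5% and 37.9%. The median GC content of the members' windows was 60% against 52.7%. The windows of 4 members that separated in the comparisons are printed 5′ to 3′ on the gene's strand, with the E2F-type words in capitals (overlapping words run together).
Pcna, chr2:132253131-132253430, minus strand: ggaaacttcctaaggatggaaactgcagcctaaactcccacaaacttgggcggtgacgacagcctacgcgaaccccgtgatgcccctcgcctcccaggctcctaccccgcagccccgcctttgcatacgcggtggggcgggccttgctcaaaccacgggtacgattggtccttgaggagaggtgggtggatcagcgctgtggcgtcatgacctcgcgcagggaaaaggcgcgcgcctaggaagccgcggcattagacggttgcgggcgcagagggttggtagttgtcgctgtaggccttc
Mcm6, chr1:128359656-128359955, minus strand: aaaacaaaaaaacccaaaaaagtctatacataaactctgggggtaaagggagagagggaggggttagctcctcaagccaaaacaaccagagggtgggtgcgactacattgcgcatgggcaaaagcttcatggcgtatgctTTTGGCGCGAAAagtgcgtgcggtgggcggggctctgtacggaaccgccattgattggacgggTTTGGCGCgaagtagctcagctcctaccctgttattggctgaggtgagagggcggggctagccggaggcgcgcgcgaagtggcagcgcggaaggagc
Mcm3, chr1:20820263-20820562, minus strand: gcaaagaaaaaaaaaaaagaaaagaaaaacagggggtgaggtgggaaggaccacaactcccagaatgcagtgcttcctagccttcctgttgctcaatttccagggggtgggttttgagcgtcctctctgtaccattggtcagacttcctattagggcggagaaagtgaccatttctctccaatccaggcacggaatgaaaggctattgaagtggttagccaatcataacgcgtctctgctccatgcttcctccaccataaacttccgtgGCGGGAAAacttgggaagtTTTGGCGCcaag
Cdc6, chr11:98907901-98908200, plus strand: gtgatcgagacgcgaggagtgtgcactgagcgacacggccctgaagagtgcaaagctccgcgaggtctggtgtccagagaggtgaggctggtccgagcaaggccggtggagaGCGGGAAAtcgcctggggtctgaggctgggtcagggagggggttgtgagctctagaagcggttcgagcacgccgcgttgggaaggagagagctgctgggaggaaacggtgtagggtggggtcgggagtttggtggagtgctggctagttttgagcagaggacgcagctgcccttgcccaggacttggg
The Mcm6 window held 3 such words, the Mcm3 window 2, the Cdc6 window 1 and the Pcna window 0. A match is a description of these letters and was not tested for binding.

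Mean signal was 595 to 623 units on the ESC arrays and 200 to 371 units on the others, and 9250 to 11675 of 25697 probes were detected per array. Replicates correlated at r = 0.988 to 0.996 over the 9620 genes. Of the 36 members, 36 and 35 had a detected probe in ESC and 29 to 32 on each other array. All 8 pluripotent markers and all 4 primed markers passed the filter, with all 4 primed markers called higher and 7 of 8 pluripotent markers called lower in EpiSC than in ESC. Sox2 was higher in Epi-Sox2 than in EpiSC by 0.94 ± 0.13 (adjusted p = 0.00131), while Pou5f1, the gene the reporter follows, was lower in EpiSC-GFP+ than in EpiSC-GFP- by 0.38 ± 0.13 (log2 difference -0.38, adjusted p = 0.0494), although 7 of the 8 pluripotent markers were higher there. Of 12 fibroblast feeder markers 9 were tested. Their summed level was 2250 to 2360 units in ESC, 507 to 508 in EpiSC, 1510 to 1680 in Epi-Sox2, 732 to 758 in EpiSC-GFP-, 801 to 849 in EpiSC-GFP+ and 2320 in T9-EpiSC. Acta2 alone made up 80.4% to 80.5% of the sum in Epi-Sox2. Without Acta2 the sum was 294 to 330 units in Epi-Sox2, 254 to 297 in EpiSC and 776 to 828 in ESC. In EpiSC against ESC 8 of the 9 were called lower, against 26.2% of all genes. Lox and Col3a1 passed the detection filter through the ESC arrays alone, so their falls were fixed in advance. Dcn and Pdgfra also needed an ESC array to pass. The number of the 9 feeder markers detected was 8 to 9 per array in ESC, 2 to 4 in EpiSC, 4 to 5 in Epi-Sox2, 2 to 3 in the E3 fractions and 7 in T9-EpiSC.

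Levels below are log2 values after background correction and quantile normalization, read only within a probe. Each difference is on the log2 scale and carries its standard error (± SE, n = 2 arrays in either group), and limma's p-values were adjusted by Benjamini-Hochberg over all 9620 genes, with a threshold of 0.05. A gene past that threshold is said to be called, to rise or to fall. A probe that no array of a group detected has only a bound there, so its fold is written "at least", against the lowest detected signal on those arrays. In bulk RNA, fewer cells in S phase and less RNA per cell cannot be told apart.

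The first comparison set epiblast stem cells of the GOF18 line against embryonic stem cells. Replication genes went in both directions, and 9 of the 36 members were not called. The largest falls were greater than the largest rise. The clamp gene Pcna, the primase gene Prim1, the clamp-loader subunit gene Rfc4 and all 3 licensing genes fell, while the single-strand binding gene Rpa3, the flap nuclease gene Fen1 and the loader subunit gene Rfc2 rose. Of the 36 members 27 were called, against 66.6% of all genes tested. Lower were 15, against 26.2% of all genes, and higher were 12, against 40.4%. Gmnn, Prim1 and Orc4, counted among the 15, passed the detection filter through the ESC arrays alone. Their falls were thus fixed in advance, and their p-values are no support for them. Orc2 also needed the ESC arrays to pass. The fitted fall was 1 log2 unit or more for 11 of the 15, and for 9 with undetected groups set at their bound, which leaves out Orc2 and Orc4. The fitted rise reached that size for 1 of the 12. Over all 9620 genes 1421 fell and 1688 rose that far. In either direction it was 12 of the 36 members by fitted values, against 32.3% of all genes. The median difference of the 36 members was 0.14, and that of all genes was 0.22.

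**Figure D1:**
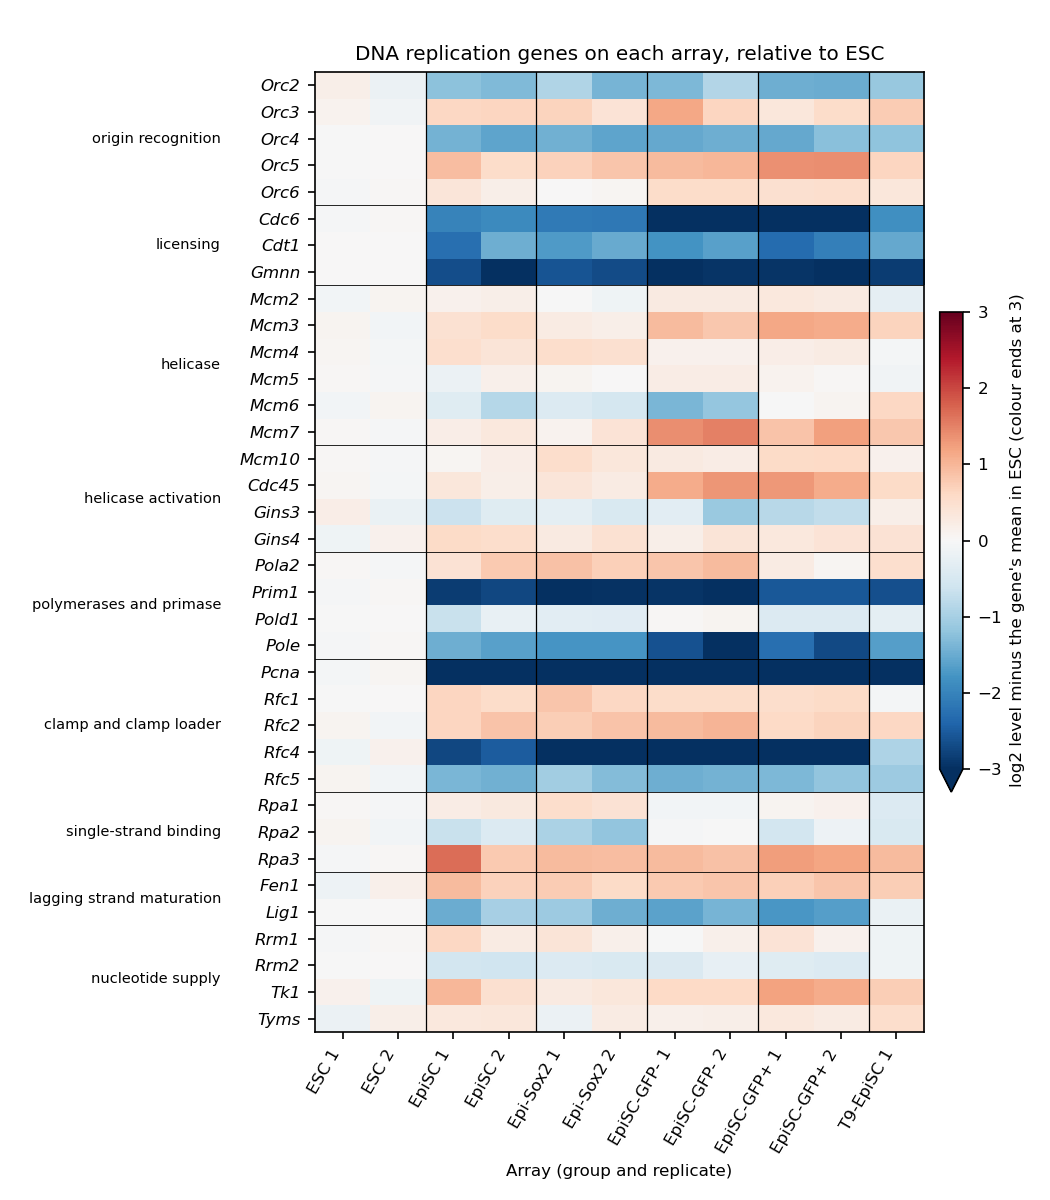
Level of each of the 36 measured replication genes (rows, grouped by role) on each of the 11 arrays (columns, by group and replicate), as the log2 level minus the gene's mean over the 2 ESC arrays. Blue is lower and red higher than in ESC, colours end at 3 log2 units, and Pcna is below -3 on every array outside ESC. The pale reds outside ESC depend on the normalization, as 12 members were called higher in EpiSC after quantile normalization, 5 after cyclic loess and 1 after median scaling.

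The rises were less stable than the falls across ways of scaling the arrays. The median of all genes stood at 0.22 in this comparison after quantile normalization, at 0.01 after cyclic loess and at -0.13 after median scaling, and rises made up 60.7%, 48.9% and 39.8% of the calls over all genes. All 15 members that fell were also called lower under both alternatives. By fitted values the same 11 members stood 1 or more below the median of all genes under all 3 normalizations. Of all genes 18% to 20.1% did. These members were Orc2, Orc4, Cdc6, Cdt1, Gmnn, Prim1, Pole, Pcna, Rfc4, Rfc5 and Lig1. The detection filter fixed the direction of Gmnn, Prim1 and Orc4 in advance, and Orc2 also needed the ESC arrays to pass. Their falls under each normalization are thus no support for stability. The share without such genes was not counted, so the 11 members cannot be set against that of all genes. Of the 12 members that rose, 5 were called with cyclic loess (Orc3, Orc5, Rfc2, Rpa3 and Fen1) and 1 with median scaling (Rpa3).

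Licensing genes, which load the helicase onto origins, were lower throughout. Gmnn read 7.27 and 7.27 in ESC, 4.60 and 4.21 in EpiSC, 4.69 and 4.58 in Epi-Sox2, 4.23 and 4.32 in EpiSC-GFP-, 4.33 and 4.26 in EpiSC-GFP+ and 4.42 in T9-EpiSC. It was detected on the ESC arrays only, and was at least 5.26-fold lower in EpiSC (adjusted p = 1.92e-07). Cdc6, the ATPase that recruits the helicase to the origin complex, read 9.90 and 9.97 in ESC, 7.94 and 8.03 in EpiSC, 7.82 and 7.80 in Epi-Sox2, 6.45 and 6.72 in EpiSC-GFP-, 6.64 and 6.69 in EpiSC-GFP+ and 8.09 in T9-EpiSC. The ESC arrays were highest, the GOF18 and T9 arrays lay in between and the 4 E3 arrays were lowest, with no overlap between these 3 sets. Cdc6 fell by 1.95 ± 0.13 in EpiSC (adjusted p = 8.76e-07), but its other detected probe, near the detection limit at 4.37 to 5.09 on every array, differed by 0.39 ± 0.23 in the opposite direction and was not called. Cdt1, the partner of Cdc6 in loading, fell by 1.87 ± 0.23 in EpiSC (adjusted p = 6.07e-05), from 11.66 and 11.66 in ESC to 9.39 and 10.20.

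Genes of the origin recognition complex, which marks the sites where licensing occurs, went in both directions. Orc4 was at least 1.98-fold lower and Orc2 at least 1.86-fold lower in EpiSC than in ESC, and neither was detected on the EpiSC arrays (adjusted p = 6.45e-06 and 0.000342). Both detected probes of Orc4 were detected on the ESC arrays only. Orc5 read 8.96 and 8.98 in ESC, 9.90 and 9.51 in EpiSC, 9.65 and 9.80 in Epi-Sox2, 9.93 and 9.96 in EpiSC-GFP-, 10.34 and 10.36 in EpiSC-GFP+ and 9.61 in T9-EpiSC. Every array outside ESC thus stood above both ESC arrays, and Orc5 rose by 0.74 ± 0.15 in EpiSC (adjusted p = 0.00141) with both of its probes called higher. Orc3 rose by 0.63 ± 0.18 (adjusted p = 0.0125), with 1 of the 2 ESC arrays detecting it, and its call was lost without ESC replicate 2 or EpiSC replicate 2 (adjusted p = 0.0915 and 0.0511). Orc6, the smallest subunit, differed by 0.26 ± 0.12 and was not called.

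By the probe that stood for each gene, the helicase genes moved little, but some other probes of Mcm6 and Mcm4 differed more and are given below. Mcm3 (0.50 ± 0.12) and Mcm4 (0.44 ± 0.12) rose and Mcm6 fell by 0.62 ± 0.17 (adjusted p = 0.00488, 0.00742 and 0.00956), while Mcm2 (0.15), Mcm5 (-0.01) and Mcm7 (0.26) were not called. Mcm6 lost its call without ESC replicate 2 or EpiSC replicate 2 (adjusted p = 0.0671 and 0.061), and Mcm4 without ESC replicate 2 (adjusted p = 0.0604). Mcm4 differed by -0.06 after median scaling. Among the genes that activate the helicase, Gins4, a GINS subunit, rose by 0.55 ± 0.14 (adjusted p = 0.00659) but was not called without ESC replicate 1 (adjusted p = 0.0659). Cdc45 (0.25), Mcm10 (0.13) and Gins3 (-0.51) were not called.

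Of the 4 polymerase and primase genes measured, 3 fell and 1 rose. Prim1, the catalytic subunit of primase, read 7.20 and 7.25 in ESC, 4.38 and 4.49 in EpiSC, 4.21 and 4.25 in Epi-Sox2, 4.28 and 4.22 in EpiSC-GFP-, 4.69 and 4.68 in EpiSC-GFP+ and 4.58 in T9-EpiSC. Like Gmnn it was detected on the ESC arrays only, and was at least 5.11-fold lower in EpiSC (adjusted p = 5.39e-08). Pole, the catalytic subunit of polymerase epsilon, fell by 1.55 ± 0.19 (adjusted p = 5.33e-05), from 8.30 and 8.35 to 6.85 and 6.69. Pold1, the catalytic subunit of polymerase delta, fell by 0.45 ± 0.15 (adjusted p = 0.0229), a call lost without either ESC array or without EpiSC replicate 1 (adjusted p = 0.0744 to 0.119). Pola2, the accessory subunit of polymerase alpha, rose by 0.61 ± 0.15 (adjusted p = 0.00453).

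Pcna had the largest fitted fall of the 36 members. Its 1 probe on the array read 9.78 and 9.89 in ESC, 5.63 and 5.50 in EpiSC, 4.57 and 5.08 in Epi-Sox2, 4.35 and 4.57 in EpiSC-GFP-, 5.86 and 5.57 in EpiSC-GFP+ and 6.10 in T9-EpiSC. All 9 epiblast arrays lay far below both ESC arrays. In EpiSC it fell by 4.27 ± 0.18 (adjusted p = 7.34e-08), and 38 of the 9620 genes, Pcna included, were as low or lower. The gene lies at chr2:132249286-132253180 (GRCm38.p6), and the place of the probe within its transcript was not examined, so the fall of this probe cannot be checked against another part of the Pcna transcript.

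Genes of proteins that load the clamp or bind it did not follow Pcna as a group. Of 9 members with such a role, 6 fell (Rfc4, Rfc5, Pole, Pold1, Lig1 and Cdt1) and 3 rose (Rfc1, Rfc2 and Fen1), with a median of -1.24 and a range from -2.62 for Rfc4 to 0.82 for Fen1. Over 18 partners, with those outside the member list added, 8 were called higher (44.4%, against 40.4% of all genes) and 8 lower (44.4%, against 26.2%), with a median of 0.13. Rfc4 read 10.05 and 10.30 in ESC, 7.44 and 7.68 in EpiSC, 6.83 and 7.10 in Epi-Sox2, 6.70 and 6.56 in EpiSC-GFP-, 6.85 and 7 in EpiSC-GFP+ and 9.25 in T9-EpiSC. Between the high ESC arrays and the 8 low GOF18 and E3 arrays stood T9-EpiSC alone. Rfc4 fell by 2.62 ± 0.15 in EpiSC (adjusted p = 4.37e-07), and its other probe fell by 2.53 ± 0.28.

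**Figure D2:**
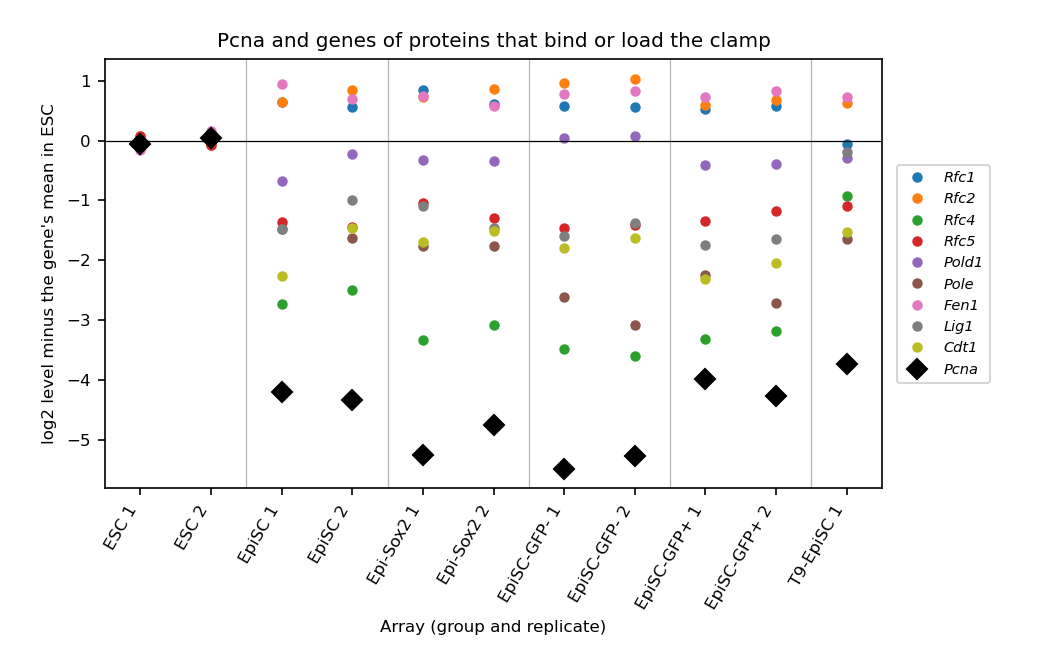
Log2 level of Pcna (black diamonds) and of 9 replication genes whose products load or bind the clamp (coloured points), each minus its own mean in ESC, on the 11 arrays. Pcna is the lowest of the 10 genes on all 9 arrays outside ESC, from -3.73 in T9-EpiSC to -5.49 in EpiSC-GFP- replicate 1, and Rfc2 and Fen1 lie above 0 on the same 9 arrays.

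Within the loader, the subunits thus separated. Rfc5 fell by 1.41 ± 0.14 (adjusted p = 1.08e-05), whereas Rfc2 read 10.31 and 10.14 in ESC, 10.88 and 11.07 in EpiSC, 10.96 and 11.08 in Epi-Sox2, 11.18 and 11.25 in EpiSC-GFP-, 10.83 and 10.90 in EpiSC-GFP+ and 10.84 in T9-EpiSC. Rfc2 was higher on all 9 epiblast arrays than on either ESC array and rose by 0.75 ± 0.13 in EpiSC (adjusted p = 0.000567). Rfc1, the large subunit, rose by 0.61 ± 0.12 (adjusted p = 0.00159).

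In the single-strand binding complex 1 subunit rose, 1 fell and 1 was not called. Rpa3, the small subunit, read 9.27 and 9.32 in ESC, 10.96 and 10.09 in EpiSC, 10.25 and 10.22 in Epi-Sox2, 10.24 and 10.17 in EpiSC-GFP-, 10.56 and 10.48 in EpiSC-GFP+ and 10.24 in T9-EpiSC. The EpiSC replicates were 0.87 apart, the widest gap of any member in any group, yet both were above ESC, and Rpa3 rose by 1.23 ± 0.23 (adjusted p = 0.000932). Rpa2 fell by 0.53 ± 0.17 (adjusted p = 0.0176), a call lost without ESC replicate 1 or EpiSC replicate 1 (adjusted p = 0.105 for each), and Rpa1 differed by 0.26 ± 0.11 without being called. Of the lagging-strand enzymes, Fen1, which removes the flaps that primers leave, read 10.26 and 10.57 in ESC, 11.36 and 11.11 in EpiSC, 11.17 and 11.00 in Epi-Sox2, 11.19 and 11.24 in EpiSC-GFP-, 11.14 and 11.25 in EpiSC-GFP+ and 11.15 in T9-EpiSC. Its groups did not overlap with ESC, and it rose by 0.82 ± 0.15 in EpiSC (adjusted p = 0.000829). Lig1, the ligase that seals the fragments, fell by 1.24 ± 0.18 (adjusted p = 0.000203).

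Nucleotide supply was mixed as well. Tk1, the thymidine kinase of S phase, rose by 0.74 ± 0.17 (adjusted p = 0.00371) and Rrm1, the large subunit of ribonucleotide reductase, by 0.43 ± 0.17 (adjusted p = 0.0453), while Rrm2, the small subunit, fell by 0.57 ± 0.12 (adjusted p = 0.0018). Rrm1 was not called without either ESC array or without EpiSC replicate 1 (adjusted p = 0.101 to 0.261), and differed by -0.06 after median scaling. The other detected probes of Tk1 differed by -0.59 ± 0.30 and 0.01 ± 0.21 and were not called. The second probe of Rrm2 differed by -0.18 ± 0.13 and was not called either. Tyms, thymidylate synthase, differed by 0.32 ± 0.16 and was not called. Its other detected probes were called in both directions by limma over all detected probes. ILMN_1247173 fell by 1.23 ± 0.26 (adjusted p = 0.00179), ILMN_2441895 was at least 1.36-fold higher (adjusted p = 0.000952) and ILMN_2441899 rose by 0.67 ± 0.19 (adjusted p = 0.0113).

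How far a member fell depended on the probe for several genes. More than 1 probe passed the filter for 12 members. In EpiSC against ESC all probes of Mcm6, Orc4, Rfc4 and Rpa2 were called lower and all probes of Orc5 higher, whereas Lig1, Mcm4 and Tyms had probes called in opposite directions. That is 25% of the 12 members, against 12.7% of the 2426 genes with more than 1 detected probe. Adjusted p-values in the next paragraphs on probes come from limma over all 13048 detected probes.

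The 4 probes of Mcm6 gave the widest spread. Probe ILMN_1217331 read 12.01 and 12.09 in ESC, 4.91 and 4.78 in EpiSC, 4.39 and 4.47 in Epi-Sox2, 4.74 and 4.51 in EpiSC-GFP-, 4.91 and 5.13 in EpiSC-GFP+ and 9.64 in T9-EpiSC. It fell by 7.20 ± 0.14 in EpiSC (adjusted p = 9.02e-10) and stood in between in T9-EpiSC. Probe ILMN_1236125 fell by 2.87 ± 0.23 (adjusted p = 3.13e-06). The remaining probes were bright on every array, with ILMN_2803399, the one that stood for the gene, at 9.78 to 11.76 and ILMN_1233857 at 10.14 to 10.96, and they fell by 0.62 ± 0.17 and 0.33 ± 0.12 (adjusted p = 0.0102 and 0.0329). Mcm6 transcript was therefore measured at a high level in all groups by 2 of its probes, while the other pair read 4.27 to 5.18 on the 8 GOF18 and E3 arrays and was undetected on most of them.

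Rpa2 and Lig1 showed the same kind of difference. The Rpa2 probe that stood for the gene fell by 0.53 ± 0.17, whereas the other fell by 3.03 ± 0.13 (adjusted p = 4.92e-08), from 8.62 and 8.65 in ESC to 5.64 and 5.56 in EpiSC, and was not detected on the 4 E3 arrays. Of the 4 Lig1 probes 3 fell, by 1.24 ± 0.19, 1.91 ± 0.22 and at least 2.48-fold, and ILMN_2657356 rose by 1.04 ± 0.16 (adjusted p = 0.000216). That probe read 7.23 and 6.92 in ESC and 8.72 to 9.18 on the 4 E3 arrays. For Mcm4 the bright probe rose while the dimmer probes fell by 0.54 ± 0.14 and 0.88 ± 0.16 (adjusted p = 0.00737 and 0.000673). A second Mcm10 probe rose by 1.18 ± 0.14 (adjusted p = 4.2e-05) where the probe that stood for the gene differed by 0.13. Pcna, Gmnn and Prim1 each had 1 probe, so the same check could not be made for them. Of the 56 detected probes of members, 4 were detected on the ESC arrays and on none of the 8 GOF18 and E3 arrays (2 of Orc4 and 1 each of Gmnn and Prim1, 7.14%, against 4.35% of all detected probes).

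**Figure D3:**
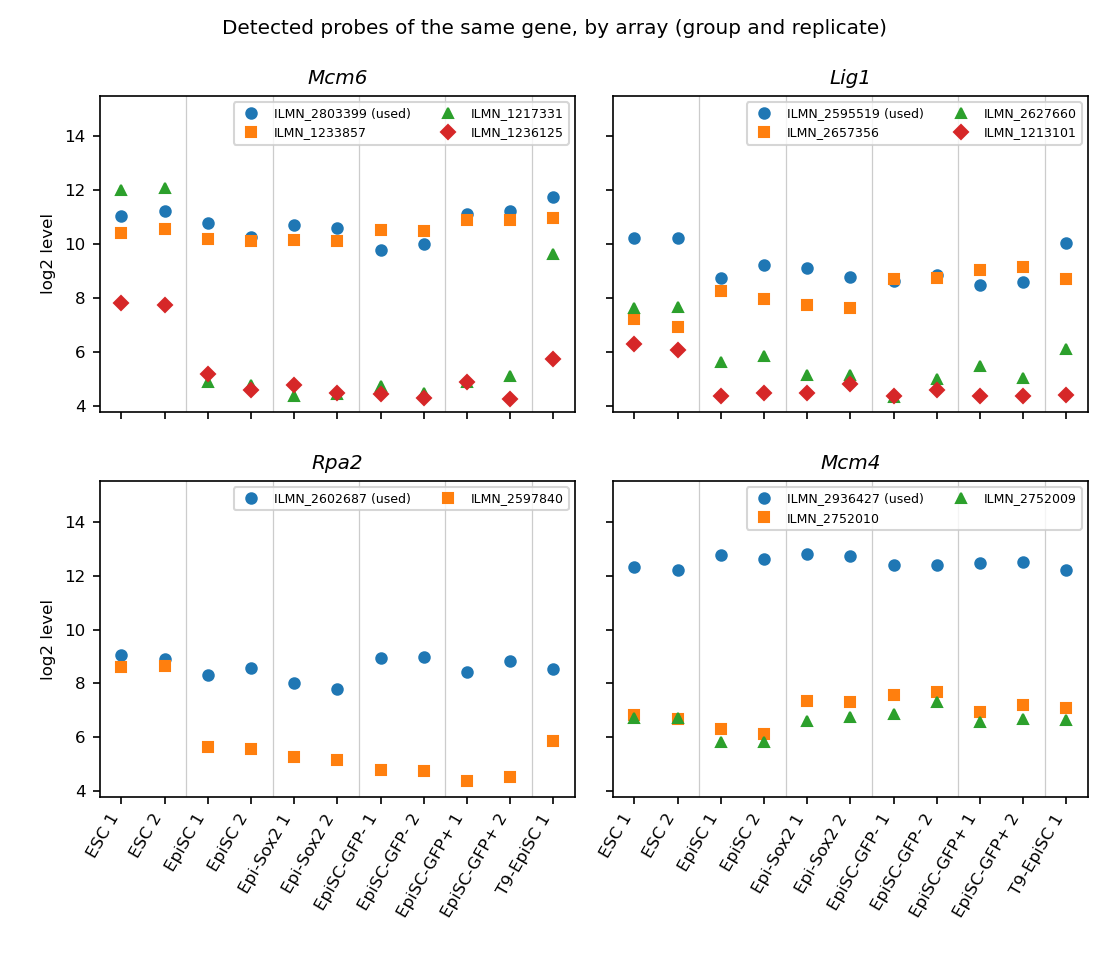
Log2 level of each detected probe of Mcm6, Lig1, Rpa2 and Mcm4 (1 panel per gene, symbols and colours by probe) on the 11 arrays. The green triangles of Mcm6 drop from about 12 in ESC (12.01 and 12.09) to 5.13 or lower in GOF18 and E3 cells and return to 9.64 in T9-EpiSC, while the blue and orange points of the same gene remain between 9.78 and 11.76. Levels are read only within a probe.

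The sorted E3 fractions were also set against ESC, and these comparisons share the ESC arrays with the one above, so their directions are given side by side and not as a repeat. In EpiSC-GFP+ 27 members were called, against 68.6% of all genes, with 13 higher (41.6%) and 14 lower (27%). In EpiSC-GFP- 26 were called, against 72.1%, with 12 higher (42.5%) and 14 lower (29.6%). The share of all calls that were higher was 60.6% in EpiSC-GFP+ and 59% in EpiSC-GFP- after quantile normalization, but 33.9% and 23.7% after median scaling, under which 2 and 0 members were called higher and 18 and 25 lower. Called lower in all 3 comparisons with ESC were 12 members (33.3%, against 20.1% of all genes): Cdc6, Cdt1, Gmnn, Lig1, Orc2, Orc4, Pcna, Pole, Prim1, Rfc4, Rfc5 and Rrm2. Of these, Gmnn, Orc4 and Prim1 passed the filter through the ESC arrays alone, which fixed their direction in advance. Called higher in all 3 were 7 members (19.4%, against 29.6%): Fen1, Mcm3, Orc5, Rfc1, Rfc2, Rpa3 and Tk1. Some of these members had probes that differed, in limma over all detected probes. Lig1 probe ILMN_2657356 was called higher in all 3 (1.04, 2.05 and 1.67 in EpiSC, EpiSC-GFP+ and EpiSC-GFP-). The second Rrm2 probe was not called in EpiSC (-0.18 ± 0.13, adjusted p = 0.257) but was called lower in both E3 fractions. The second Cdc6 probe, near the detection limit, was called in none. Another Tk1 probe was called lower in EpiSC-GFP+ (-0.77 ± 0.30, adjusted p = 0.0411 over all detected probes). With the mean of its probes Tk1 was called in none of the 3 (adjusted p = 0.8, 0.198 and 0.755 in EpiSC, EpiSC-GFP+ and EpiSC-GFP-). After median scaling all 7 were below 0 in EpiSC-GFP- (-0.03 for Rfc2 to -0.55 for Rfc1), and Rfc1 and Rfc2 also in EpiSC-GFP+ (-0.13 and -0.01).

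**Figure D4:**
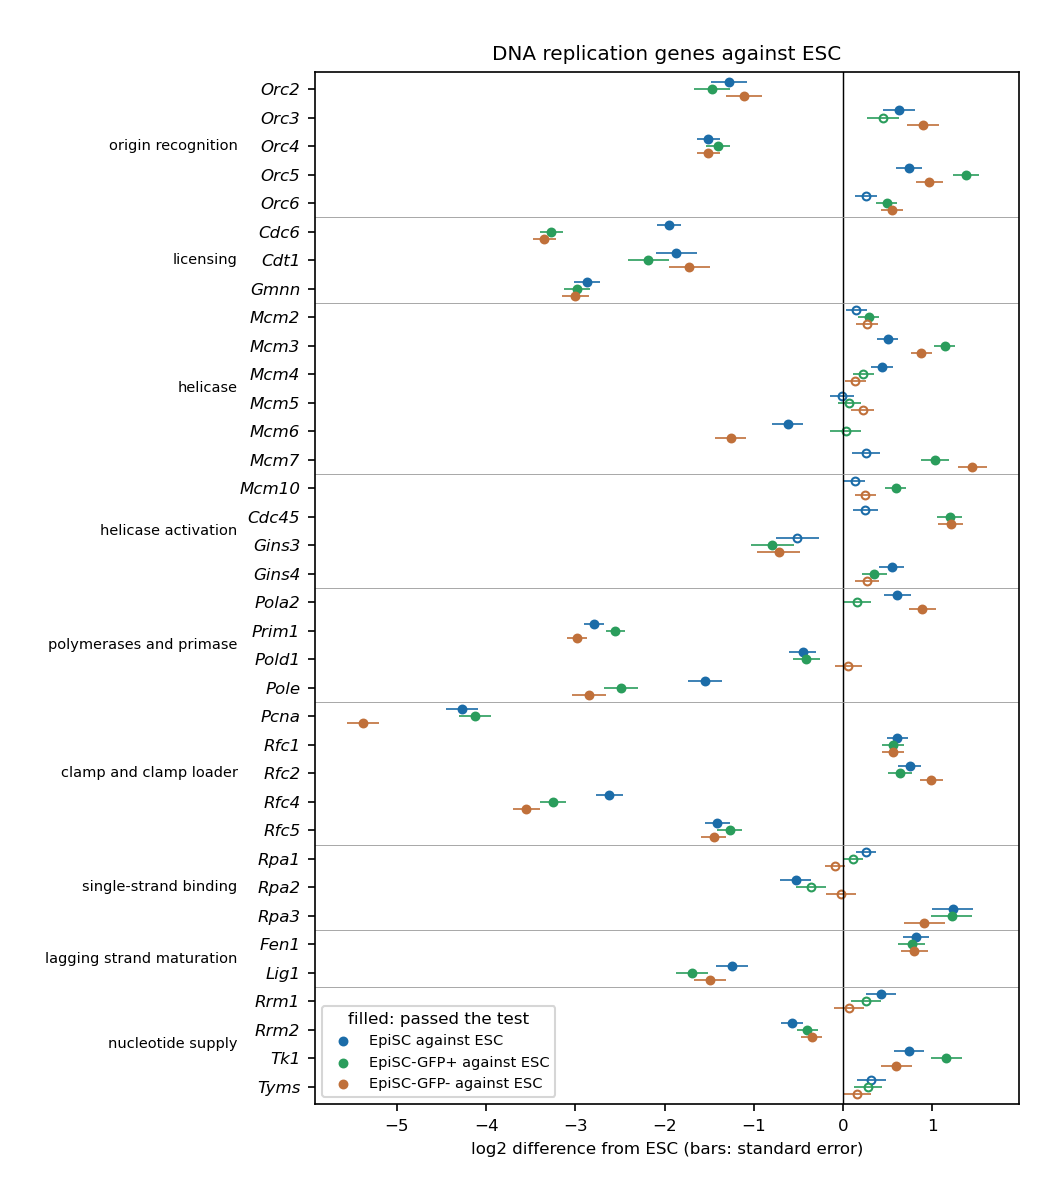
Log2 difference from ESC for each of the 36 genes (rows, by role) in EpiSC (blue), EpiSC-GFP+ (green) and EpiSC-GFP- (orange), with standard errors as bars and filled points past the test. The licensing genes, Prim1, Pole, Pcna, Rfc4 and Rfc5 lie to the left of -1 in all 3 comparisons, which share the 2 ESC arrays, whereas most filled points right of 0 lost their call under cyclic loess or median scaling, and Rpa3 in EpiSC and EpiSC-GFP+ and Orc5 in EpiSC-GFP+ kept it under both.

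Pcna fell by 4.12 ± 0.18 in EpiSC-GFP+ and was at least 22.8-fold lower in EpiSC-GFP-, where it was not detected (adjusted p = 7.07e-08 and 1.23e-08). The Cdc6 differences were -3.27 ± 0.13 and -3.35 ± 0.13, and those of Pole -2.49 ± 0.19 and -2.85 ± 0.19, with every one called. Cdc45, a helicase activator, was higher by 1.20 ± 0.14 and 1.21 ± 0.14 (adjusted p = 3.13e-05 and 2.52e-05), and Mcm7 by 1.03 ± 0.16 and 1.45 ± 0.16 (adjusted p = 0.000237 and 1.86e-05), while neither was called in EpiSC. EpiSC-GFP+ was also set directly against EpiSC, in which 10 members were called, against 39.3% of all genes, with 6 higher (17.9%) and 4 lower (21.4%). Cdc45 (0.95 ± 0.14, adjusted p = 0.00062), Mcm7 (0.77 ± 0.16, adjusted p = 0.00418), Mcm6, Mcm3, Orc5 and Mcm10 were higher in EpiSC-GFP+, and Cdc6 (-1.32 ± 0.13, adjusted p = 6.85e-05), Pole, Rfc4 and Pola2 were lower. The line, the sort and any difference in culture cannot be told apart here. After median scaling the share of higher calls was 27.4% in place of 45.6%, and 1 of the 6 rises was called.

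The next comparison set the GOF18 cells that overexpress Sox2 against GOF18 EpiSC. Epi-Sox2 cells were cultured in CM and the medium of EpiSC is not given, so Sox2 and culture cannot be told apart. Replication genes hardly moved. Of the 36 members 2 were called by limma, against 19.9% of all genes, both of them lower (9.4% of all genes) and 0 higher (10.5%). At an unadjusted p under 0.05 the counts were 5 lower and 1 higher. The share of all genes at that threshold was not counted, so these counts cannot be set against it. None passed 1 log2 unit, which 3.15% of all genes did. Pcna fell by 0.74 ± 0.18 (adjusted p = 0.0207), with 1 of the 2 Epi-Sox2 arrays detected and both below both EpiSC arrays. Rfc4 fell by 0.59 ± 0.15 (adjusted p = 0.0243), also with no overlap. Leaving out 1 array ended both calls, as without Epi-Sox2 replicate 1 the adjusted p was 0.148 for Pcna and 0.162 for Rfc4, and without EpiSC replicate 2 it was 0.0501 and 0.0945. Without EpiSC replicate 1 the call of Pcna ended too (adjusted p = 0.0879).

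Rpa2 differed by -0.53 ± 0.17 (adjusted p = 0.0504), Tk1 by -0.44 ± 0.17 and Mcm10 by 0.31 ± 0.12, none of them called. The other 31 members lay between -0.29 and 0.26. At the level of probes, the dimmer Mcm4 probes rose by 1.11 ± 0.14 and 0.84 ± 0.16 (limma over all detected probes, adjusted p = 0.00106 and 0.00716), whereas the bright probe differed by 0.06. Their levels were 6.31 and 6.13 in EpiSC and 7.35 and 7.30 in Epi-Sox2 for the first, and 5.83 and 5.83 in EpiSC and 6.60 and 6.74 in Epi-Sox2 for the second.

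The last comparison set the reporter-positive fraction of E3 against the reporter-negative one. Mcm6 and Pcna were higher in EpiSC-GFP+, with a smaller rise of Tk1, and the polymerase subunits Pola2 and Pold1 were lower. In all 6 members were called, against 26.7% of all genes, with 4 higher (13.4% of all genes) and 2 lower (13.2%). Mcm6 passed 1 log2 unit, as did 5.69% of all genes, and Pcna passed it only by its fitted value, against a group that did not detect it. Prim1, counted among the 4, was detected in neither fraction, which leaves 3 higher. After median scaling 10 were called higher and 0 lower, and the share of all calls that were higher was 91.7% in place of 50.4%.

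Mcm6 read 11.13 and 11.23 in EpiSC-GFP+ and 9.78 and 10 in EpiSC-GFP-, beside 11.06 and 11.24 in ESC, 10.78 and 10.29 in EpiSC, 10.73 and 10.62 in Epi-Sox2 and 11.76 in T9-EpiSC. It rose by 1.29 ± 0.17 between the fractions (adjusted p = 0.000902), and on this probe the EpiSC-GFP- arrays were the lowest of all 11. The second bright probe of Mcm6 read 10.92 and 10.89 in EpiSC-GFP+ and 10.53 and 10.48 in EpiSC-GFP-. It rose by 0.40 ± 0.12 (adjusted p = 0.0364 over all detected probes). On it the EpiSC-GFP- arrays were not the lowest, as EpiSC read 10.20 and 10.14 and ESC 10.43 and 10.56. Pcna was at least 1.31-fold higher in EpiSC-GFP+, with a fitted difference of 1.25 ± 0.18 (adjusted p = 0.00142), since neither EpiSC-GFP- array detected it.

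Tk1 read 10.46 and 10.38 in EpiSC-GFP+, 9.85 and 9.86 in EpiSC-GFP-, 9.39 and 9.13 in ESC, 10.26 and 9.74 in EpiSC, 9.53 and 9.59 in Epi-Sox2 and 10 in T9-EpiSC. The EpiSC-GFP+ arrays were its highest, and it rose by 0.56 ± 0.17 between the fractions (adjusted p = 0.0392), but not with the mean of its probes (0.20, adjusted p = 0.428). Pola2 read 8.67 and 8.48 in EpiSC-GFP+, 9.26 and 9.36 in EpiSC-GFP-, 8.46 and 8.38 in ESC, 8.86 and 9.21 in EpiSC, 9.29 and 9.13 in Epi-Sox2 and 8.93 in T9-EpiSC. Its EpiSC-GFP+ arrays lay close to ESC and below all other epiblast arrays, and it fell by 0.73 ± 0.15 (adjusted p = 0.00701).

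Pold1 read 10.21 and 10.22 in EpiSC-GFP+, 10.67 and 10.70 in EpiSC-GFP-, 10.62 and 10.63 in ESC, 9.95 and 10.40 in EpiSC, 10.31 and 10.28 in Epi-Sox2 and 10.33 in T9-EpiSC, a fall of 0.47 ± 0.15 between the fractions (log2 difference -0.47, adjusted p = 0.0433). Prim1 passed the test (adjusted p = 0.0211), but none of the 4 arrays detected it, so its readings give no difference between the fractions. The calls of Tk1, Prim1 and Pold1 were lost without any 1 of the 4 arrays of these groups (adjusted p = 0.103 to 0.151 for Tk1, 0.0555 to 0.0889 for Prim1 and 0.108 to 0.142 for Pold1), and that of Pola2 without EpiSC-GFP+ replicate 2 (adjusted p = 0.052). The remaining 30 members were not called, with differences from -0.46 for Cdt1 and -0.45 for Orc3 to 0.40 for Orc5.

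**Figure D5:**
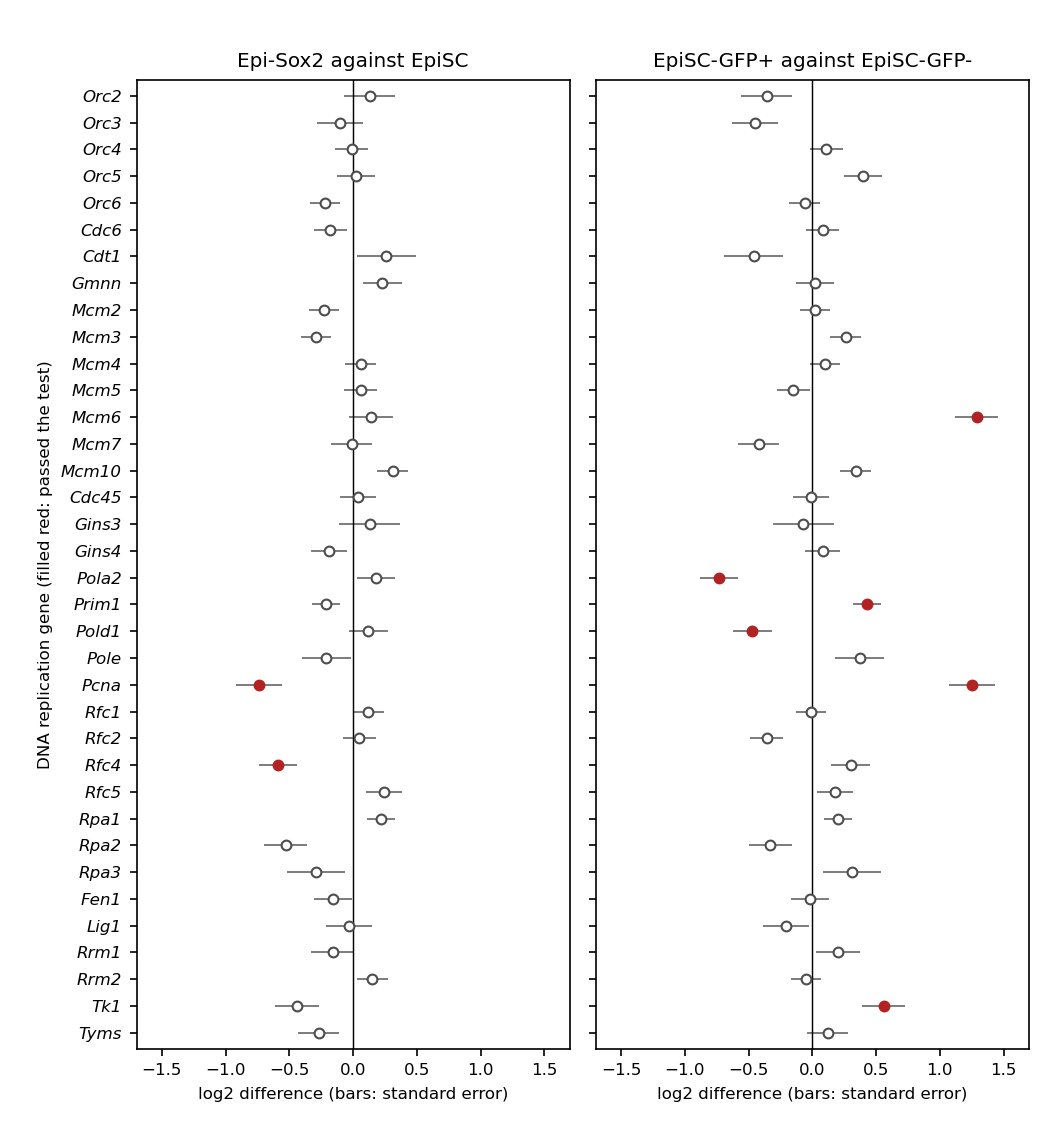
Log2 difference with standard error for each of the 36 genes (rows) in Epi-Sox2 against EpiSC (left) and EpiSC-GFP+ against EpiSC-GFP- (right), with red points past the test. On the left Pcna and Rfc4 are marked, at -0.74 and -0.59. On the right Mcm6, Pcna, Tk1 and Prim1 (which neither fraction detected) are marked to the right of 0 and Pola2 and Pold1 to the left, where median scaling called neither of the last pair.

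T9-EpiSC, with 1 array and no test, stood above all 8 GOF18 and E3 arrays for 9 of the 36 members (25%, against 21.7% of all genes) and below all 8 for 5 (13.9%, against 24.3%). Rfc4 stood 2.23 above the mean of the 8 arrays, Lig1 1.23 and Mcm6 1.19, which made 3 of 36 members past 1 log2 unit in either direction (8.33%, against 15.6%). Pcna stood 0.97 above that mean and 3.73 below ESC. The other members above all 8 were Cdc6 (0.82), Gins3 (0.78), Tyms (0.32), Rrm2 (0.30) and Orc4, which T9-EpiSC did not detect, so that its rank has no meaning and 8 of the 9 remain. Those below were Rfc1 (-0.67), Rpa1 (-0.61), Mcm2 (-0.43), Rrm1 (-0.40) and Mcm4 (-0.39). The summed level of the feeder markers, 2320 units in T9-EpiSC, also lay with ESC and above the other 8 arrays. Acta2 alone made up 78.9% of it, and without Acta2 the sum was 490 units in T9-EpiSC, 776 to 828 in ESC and 254 to 381 on the other 8 arrays. Markers differed among themselves, as Dcn read 6.4 in T9-EpiSC beside 6.25 and 5.79 in ESC, whereas Lox read 4.50 beside 7.56 and 7.43. The part of these markers in the T9-EpiSC values and in the falls from ESC was not tested.

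Further genes of replication and of the cell cycle, outside the 41, were read in the same comparisons. Of 29 other replication genes tested, 13 were higher (44.8%) and 7 lower (24.1%) in EpiSC than in ESC, shares near the 40.4% and 26.2% of all genes, with a fall of 2.62 ± 0.15 for Pole4, a small subunit of polymerase epsilon, a level at least 3.41-fold lower for Dscc1, a subunit of an alternative clamp loader, and a rise of 1.67 ± 0.12 for Pold2, the second subunit of polymerase delta (adjusted p = 4.51e-07, 7.68e-06 and 1.75e-06). Of 11 E2F and Rb family genes 2 were higher (18.2%) and 4 lower (36.4%), led by Tfdp2 (-1.72), E2f6 (1.53) and E2f5 (-1.17). Of 14 mitosis genes 5 were higher (35.7%) and 6 lower (42.9%), with Tpx2 at -3.04, Ttk at least 4.97-fold lower and Ccna2, the S-phase cyclin A, at least 2.02-fold lower. Ccna2, counted among the 6, passed the detection filter through the ESC arrays alone, so its fall was fixed in advance. Ttk and Dscc1, each detected on 3 arrays, also needed the ESC arrays to pass. Of members with an E2F-type word in their window, 2 were higher and 5 lower of 10 tested, beside 7 higher and 8 lower of 21 members whose window held none.

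In Epi-Sox2 against EpiSC 5 of the 29 other replication genes (17.2%, against 9.4% of all genes) were lower and 0 higher in limma (9 and 1 at an unadjusted p under 0.05), among them Pold2 (-0.76), Wdhd1 (-0.61) and Rnaseh2c (-0.54). Rb1 (0.78) and E2f1 (0.42) were higher, and of the 14 mitosis genes limma called 0, with 0 also at an unadjusted p under 0.05. For the counts at an unadjusted p no share of all genes was counted. Between the E3 fractions 4 of the 29 (13.8%, against 13.4% of all genes) were higher and 1 (3.45%, against 13.2%) lower in EpiSC-GFP+, with Dbf4, the activator of the kinase that fires origins, at 0.74, Rnaseh2c at -0.72 and Chaf1a at 0.57. Of the E2F and Rb genes 2 were higher and 3 lower, with Rbl1 at least 1.21-fold lower, E2f4 at 0.72 and E2f6 at -0.47. Cdk1 (0.62) was higher and Cdc20 (-0.46) lower among the 14 mitosis genes.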

How the data were processed

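The deposited table of intensities holds a mean bead signal per probe and array, not normalized per the file headers, with a detection p-value beside each, also as deposited by the authors. The log2 values deposited per array were made by the authors, with BeadStudio 3.2, lumi and RMA named in the submitters' processing notes, and served as an alternative. From 300 ng of RNA, labelled cRNA was made in a 12 h reaction, per the labels. Here intensities were background-corrected by normexp with detection p-values (limma 3.58.1 in R 4.3.3, offset 16), put on the log2 scale and quantile normalized. The filter on detection (p-value below 0.01 on at least 2 of the 11 arrays) kept 13048 of 25697 probes, and the brightest stood for each gene. Symbols came from the platform annotation, with 23978 probes having 1 symbol, 0 several and 1719 none. limma fitted 1 mean per group over all arrays (5 residual and 4.64 prior degrees of freedom) and 6 comparisons, with Benjamini-Hochberg adjustment in each. An exact permutation test of 2 arrays against 2 cannot go below p = 0.333. The fit was tested on simulated data. The number of arrays limits the precision.

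Members and gene lists were chosen with earlier results of these data known. By rule, every member past the filter was named with at least 1 value, values on every array were given for Pcna and for up to 4 of the largest called rises and falls of each main comparison, and up to 3 called genes were named from each other list. Cdc6 was added to those given on every array after its values were seen, as were the probe levels of Mcm6, Rpa2, Lig1 and Mcm4. Alternatives covered background, normalization, filter, probe choice, model and left-out arrays.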

Additional observations from a re-analysis of the deposited data

Results flagged for a closer look

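In limma's direct test of EpiSC-GFP+ against EpiSC, in which the shared ESC arrays cancel, 10 of 36 members differed (27.8%, against 39.3% of all genes). EpiSC-GFP+ was higher for 6 of them. Orc5 differed by 0.64 ± 0.15 (adjusted p = 0.00672), with 1.38 above ESC in EpiSC-GFP+ and 0.74 in EpiSC. The helicase gene Mcm3 differed by 0.64 ± 0.12 (adjusted p = 0.00306), with 1.14 and 0.50 above ESC. For Mcm6 the value was 0.65 ± 0.17 (adjusted p = 0.0146), and its other bright probe also read higher in EpiSC-GFP+. Mcm7 differed by 0.77 ± 0.16 (adjusted p = 0.00418), Mcm10 by 0.46 ± 0.12 (adjusted p = 0.0156) and Cdc45 by 0.95 ± 0.14 (adjusted p = 0.00062). EpiSC-GFP+ was lower for the other 4, with Cdc6 at -1.32 ± 0.13 (adjusted p = 6.85e-05), Pole at -0.93 ± 0.19 (adjusted p = 0.00378), Rfc4 at -0.63 ± 0.15 (adjusted p = 0.00904) and Pola2 at -0.46 ± 0.15 (adjusted p = 0.0342). Without EpiSC replicate 2 the calls of Mcm6 (0.40, adjusted p = 0.0788), Pola2 (-0.29, adjusted p = 0.164) and Rfc4 (-0.52, adjusted p = 0.0548) ended. Without EpiSC-GFP+ replicate 1 those of Mcm10 (adjusted p = 0.0639), Pola2 (adjusted p = 0.0542) and Rfc4 (adjusted p = 0.0598) did, and without EpiSC-GFP+ replicate 2 those of Mcm10 (adjusted p = 0.0722), Mcm6 (adjusted p = 0.0773) and Pola2 (adjusted p = 0.181). The reporter-negative E3 fraction did not share every direction, as Pola2 read 9.26 and 9.36 there, above EpiSC. For Mcm6 the direction depended on the probe. The probe that stood for the gene read 9.78 and 10 there, below EpiSC. The other bright probe read 10.53 and 10.48, above its 10.20 and 10.14 in EpiSC. Line, sort and culture cannot be told apart.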

How the results depend on the processing

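In EpiSC against ESC 12 members were called higher, and 5 with cyclic loess, 1 with median scaling and 1 at 1 log2 unit or more. Leaving out 1 array gave 9 to 12 higher and 13 to 15 lower. In Epi-Sox2 against EpiSC 0 were higher, and 1 with an offset of 50, no background correction, the detected probe of lowest mean, an intensity trend or the mean of a gene's probes (0 to 1 with 1 array left out). There 2 were lower, and 4 with an offset of 50, no background correction or an intensity trend, 1 with median scaling, the probe of lowest mean, only the arrays of both groups or all probes called in 1 direction, 0 at 1 log2 unit, and 0 to 3 with 1 array left out. In EpiSC-GFP+ against EpiSC-GFP- 4 were higher, and 10 with median scaling, 2 with the probe of lowest mean, at 1 log2 unit or with all probes in 1 direction, and 2 to 4 with 1 array left out. There 2 were lower, and 4 with an offset of 50, no background correction or an intensity trend, 1 with cyclic loess, the authors' deposited log2 values, no detection filter or the probe of lowest mean, 0 with median scaling or at 1 log2 unit, and 0 to 2 with 1 array left out.

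In EpiSC-GFP+ against ESC 13 were higher, and 8 with cyclic loess, 2 with median scaling and 6 at 1 log2 unit (11 to 13 higher and 12 to 14 lower with 1 array left out). In EpiSC-GFP- against ESC 12 were higher, and 0 with median scaling and 2 at 1 log2 unit, while 14 were lower, and 25 with median scaling (11 to 12 and 12 to 14 with 1 array left out). In EpiSC-GFP+ against EpiSC 6 were higher, and 1 with median scaling and 0 at 1 log2 unit, and 4 were lower, and 1 at 1 log2 unit and 2 with all probes in 1 direction (4 to 8 and 2 to 6 with 1 array left out). Taking all probes in 1 direction or their mean was chosen after seeing the data.

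Signs of called members turned as follows. With the probe of lowest mean, Cdc6 read 0.39 in EpiSC, 0.27 in EpiSC-GFP+ and 0.01 in EpiSC-GFP- against ESC, Mcm4 read -0.88 in EpiSC against ESC and Mcm6 read -0.32 in EpiSC-GFP+ against EpiSC. With the mean of probes Mcm4 read -0.33 in EpiSC against ESC, and with cyclic loess Mcm2 read -0.01 in EpiSC-GFP+ against ESC. Median scaling gave -0.06 for Mcm4 and for Rrm1 in EpiSC. In EpiSC-GFP+ it gave Gins4 -0.30, Mcm10 -0.01, Mcm2 -0.29, Orc6 -0.11, Rfc1 -0.13 and Rfc2 -0.01. In EpiSC-GFP- it gave Fen1 -0.22, Mcm3 -0.22, Orc5 -0.12, Orc6 -0.47, Pola2 -0.23, Rfc1 -0.55, Rfc2 -0.03, Rpa3 -0.17 and Tk1 -0.50. The cause was not tested.

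No shared deviation was seen between same-numbered arrays, with correlations of -0.0179 to 0.0858 over 10 pairs of groups. Whether such arrays came from the same culture or sort cannot be told from these values. With the replicate number as a block the counts higher and lower were 12 and 15, 0 and 2, 4 and 2, 13 and 14, 12 and 14, and 6 and 4 in the order above. Slide as a block was not run, since the tables name no slide. Probes near background, such as Gmnn and Prim1 outside ESC, give bounds only.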
